A study of Mus musculus with 18 samples.

Results

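The genes described here carry BMP and TGF-beta signals in endothelial cells: the receptors Eng, Acvrl1, Bmpr2 and Tgfbr2, the signal mediators and inhibitors Smad1, Smad6 and Smad7, and the target genes Id1, Id2 and Id3. The 10 genes were taken by symbol, and 9 of them had a row in each of the 3 tissue tables, out of 14068 genes with a row in at least 1 table (11718 in choroid, 12369 in retina and 12919 in brain). Bmpr2 was not analysed here. A gene had a row where every library of at least 1 fraction held 50 or more counts, and of the 9 genes Smad6 met this in retina and brain through the positive libraries alone. The series measured RNA in 18 libraries, with 3 libraries of choroid positive, choroid input, retina positive, retina input, brain positive and brain input, from replicates numbered 421, 953 and 960, called biological replicates in the labels. All mice had the genotype Tie2-cre+; NuTRAP+, in positive and input libraries alike, the column headings carry the tag WT, with age and sex not given in the sources used here. The Tie2 promoter drives Cre in endothelium and in blood-lineage cells, and NuTRAP then labels ribosomes of those cells with GFP. Translating ribosome affinity purification (TRAP) pulls these ribosomes down with an antibody to GFP, and the bound RNA is the positive fraction. The input is 150 µl of the same lysate, taken after a spin at 12000 g and before the antibody was added. A choroid sample held the RPE-choroid of 2 eyes, a retina sample 2 retinae and a brain sample 0.5 of a brain.

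In BMP signalling, a ligand binds a pair of type II receptors such as Bmpr2 and a pair of type I receptors such as ALK1 (Acvrl1), and these phosphorylate Smad1, Smad5 and Smad9, which enter the nucleus with Smad4 and switch on the Id genes. TGF-beta ligands use the type II receptor Tgfbr2 with the type I receptors Tgfbr1 or, in endothelium, ALK1, and signal through Smad2 and Smad3 or Smad1 and Smad5. Endoglin (Eng) is a co-receptor that presents BMP9 and BMP10 to ALK1, Smad6 and Smad7 are inhibitory SMADs that the pathway itself induces, and Id proteins bind E proteins such as Tcf3, Tcf4 and Tcf12 and keep them off DNA. In people, loss of ENG or ACVRL1 function causes hereditary haemorrhagic telangiectasia, a disease of arteriovenous malformations, and loss of BMPR2 function causes pulmonary arterial hypertension.

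Promoters of 4 of the genes are printed, chosen for contrasts in the results from the 7 genes with a matched promoter. Eng and Id3 were high in every positive fraction, as was Id1, for which no promoter was matched. Smad6 had the largest difference between choroid positives and those of the other tissues, and Id2 was the gene without a gain in choroid. RefSeq promoters (GRCm38.p6) matched 7 of the 10 genes (Eng, Bmpr2, Tgfbr2, Smad1, Smad6, Id2 and Id3). Each run holds 250 bases before and 10 after the transcript start, 5′ to 3′ on the gene's own strand, and capitals mark matches to GTCTAGAC (the SMAD-binding palindrome), CAGAC or its reverse complement GTCTG (the short SMAD-binding site) and GGCGCC (a GC-rich site that BMP SMADs bind).
Eng, chr2:32646345-32646604, plus strand: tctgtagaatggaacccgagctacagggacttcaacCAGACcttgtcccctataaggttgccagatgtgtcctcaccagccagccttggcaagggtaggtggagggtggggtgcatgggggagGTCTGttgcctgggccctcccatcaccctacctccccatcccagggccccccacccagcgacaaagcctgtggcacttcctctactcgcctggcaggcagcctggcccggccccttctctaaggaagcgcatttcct
Smad6, chr9:64022050-64022309, minus strand: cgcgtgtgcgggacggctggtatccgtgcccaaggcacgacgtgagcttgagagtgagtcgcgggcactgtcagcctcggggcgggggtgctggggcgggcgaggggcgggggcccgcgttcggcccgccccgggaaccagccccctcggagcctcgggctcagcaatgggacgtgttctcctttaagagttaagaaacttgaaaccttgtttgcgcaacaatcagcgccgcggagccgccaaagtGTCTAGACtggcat
Id2, chr12:25096083-25096342, minus strand: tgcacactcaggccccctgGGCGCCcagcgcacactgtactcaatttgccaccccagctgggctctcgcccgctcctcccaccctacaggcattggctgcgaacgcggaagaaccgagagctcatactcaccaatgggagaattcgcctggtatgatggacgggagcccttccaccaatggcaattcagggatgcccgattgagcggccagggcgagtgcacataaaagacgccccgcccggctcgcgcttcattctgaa
Id3, chr4:136143572-136143831, plus strand: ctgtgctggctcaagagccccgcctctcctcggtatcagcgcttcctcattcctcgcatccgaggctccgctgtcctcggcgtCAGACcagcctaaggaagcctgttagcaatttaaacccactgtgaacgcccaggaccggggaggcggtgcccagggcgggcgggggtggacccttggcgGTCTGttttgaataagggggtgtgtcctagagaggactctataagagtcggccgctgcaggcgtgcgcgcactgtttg
In 300 bases (250 before and 50 after the start), searched on both strands, Smad6 had 1 GTCTAGAC, which spans the start and which 0.213% of 32851 promoters hold. Eng and Id3 had 2 CAGAC or GTCTG matches each, and Tgfbr2 had 1. That motif stands in 49.6% of promoters. GGCGCC, in 11.9% of promoters, had 1 match in Id2 and 1 in Bmpr2. The 3 motifs do not overlap each other, Smad1 held none of them, and a match describes letters in a window and not a bound site.

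Total counts over listed genes ran from 2649016 to 4587800 in choroid positive, 8807208 to 14483964 in choroid input, 6260897 to 11071408 in retina positive, 15243091 to 21521055 in retina input, 18618321 to 28277777 in brain positive and 9596720 to 32064311 in brain input libraries. Replicates correlated across genes at 0.931 to 0.949 in choroid positives and 0.929 to 0.967 in choroid inputs, and at 0.944 to 0.995 in the fractions of retina. Brain positives correlated at 0.984 or more and brain inputs at 0.911 or more, with brain input 960, the shallowest of its group, apart from the other inputs. The tissue label was checked against 10 endothelial markers. All 10 met the listing minimum in both fractions of choroid, against 3 in retina and 5 in brain, and each of these was called higher in positives. The others were listed through the positives alone, which favours a higher value there. The summed level of the 10 markers was 4914 to 5738 CPM in positives against 332 to 572 CPM in inputs of choroid, 1025 to 1788 against 26.6 to 28.6 CPM in retina and 2509.5 to 3833 against 78.4 to 89.5 CPM in brain. Microglia, macrophage and leukocyte markers were higher as well, counted here over those that met the minimum in both fractions. The CPM sums are over every listed marker of a type. Of the microglia and macrophage markers 7 of 8 were higher in choroid (15756 to 22974 against 1624 to 2760.5 CPM summed), 4 of 4 in retina (171 to 742 against 28.6 to 34.7 CPM, with Aif1 and Mrc1 not listed) and 7 of 7 in brain (4019 to 5115 against 284 to 462 CPM). Of the leukocyte markers 6 of 6 were higher in choroid (1111 to 1416 against 162 to 333 CPM), 1 of 1 in retina (55.4 to 157 against 14.4 to 20.0 CPM, with Ptprc and Cd53 not listed) and 3 of 4 in brain (855 to 1175 against 148 to 197 CPM). Among mural cell markers 1 of 1 was lower in choroid (113 to 188 against 282 to 526 CPM) and 2 of 3 in brain (31.4 to 37.8 against 47.6 to 68.1 CPM). Retina listed 2 of them, with 1 higher and a summed level of 16.7 to 355 CPM in positives, against 20.5 to 23.1 CPM in inputs. Rod markers summed to 20187 to 33266 CPM in retina positives, against 34187 to 35691 CPM in retina inputs, with 1 of 4 lower, and to 94.6 to 1523 CPM in choroid positives, against 277 to 3587 CPM in choroid inputs. Neuron markers summed to 1667 to 2765 CPM in retina positives, against 3242 to 3307 CPM in inputs, with 3 of 5 lower, and to 2448 to 3151 CPM in brain positives, against 4869 to 5070.3 CPM in inputs, with 4 of 5 lower. Astrocyte and Müller glia markers summed to 2028 to 2564 CPM in choroid positives, against 5298 to 6323 CPM in inputs, with 3 of 4 lower. They summed to 1817 to 2326 against 3106 to 3333 CPM in retina, with 4 of 5 lower, and to 2660.5 to 3126 against 2621 to 3206 CPM in brain, with 4 of 6 lower. RPE markers summed to 630 to 1139 CPM in choroid positives, against 2793 to 4461 CPM in choroid inputs, with 3 of 3 lower. In retina they summed to 160 to 172 CPM in positives, against 209 to 214 CPM in inputs, with 1 of 1 lower. The part of these other cells in the values that follow was not tested, and fewer cells of a type and less RNA per cell cannot be told apart in such libraries.

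The receptors were among the transcripts with large gains in the pull-down. CPM, the counts of a gene scaled to library size, are normalised with TMM within a tissue and given for replicates 421, 953 and 960 in that order. A log2 fold change is positive over input with its standard error, and calls of higher or lower require that the adjusted p of edgeR's quasi-likelihood test, over all genes of the fit, be under 0.05. Listing through 1 fraction alone favours a higher value in that fraction. Counts are therefore given over genes that met the listing minimum in both fractions, which leaves out Smad6 in retina and brain. Of these, 8 of 9 were called higher in choroid, where 30.1% of all genes so listed were, 8 of 8 in retina, where 17.3% were, and 7 of 8 in brain, where 16.7% were. None (0) was called lower in choroid or retina, where 14.8% and 14.3% of all genes so listed were, and 1, Id2, was called lower in brain, where 19.9% were. With a library left out, choroid had 7 to 8 of them higher, retina 6 to 8 and brain 6 to 7. The median log2 fold change was 1.64 in choroid, 4.04 in retina and 3.67 in brain, beside 0.21, -0.0078 and -0.13 over all genes so listed. Those background counts moved with single libraries. In choroid 2269 genes were higher, and 1466 without input 953. In retina 1855 were higher and 1540 lower, and between 968 and 1167 were higher and between 536 and 786 lower without positive 953 or any single input, while 2398 were lower without positive 960. In brain 1867 were higher, against 1239 without positive 953 and 3682 without input 960, and 2223 were lower, against 957 to 1398 without positive 421 or 953 or input 421 or 953, and 4282 without input 960. In choroid, 2471 genes of the whole table were higher and 2451 lower, and scaling by library size only gave 1756 and 3340.

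Eng (chromosome 2, 32646595 to 32682669, plus strand, mm10), the endoglin gene, had 1930.4, 1094 and 1606 CPM in choroid positives, against 223, 109 and 169.7 CPM in choroid inputs. In retina it had 328, 215 and 182 CPM in positives, against 3.41, 2.76 and 4.39 CPM in inputs. In brain it had 698, 865 and 623 CPM in positives, against 15.8, 16.1 and 14.3 CPM in inputs. No positive library came near an input of its tissue, and the retina inputs held 82 or fewer Eng counts each. The log2 fold change was 3.21 ± 0.33 in choroid (edgeR adjusted p = 0.000244, 9.24-fold), 6.10 ± 0.29 in retina (edgeR adjusted p = 1.66e-06, 68.7-fold) and 5.56 ± 0.21 in brain (edgeR adjusted p = 4.01e-05, 47.2-fold). The 10 endothelial markers had median log2 fold changes of 3.46, 6.25 and 5.48 in the same fits, which include those listed through positives alone. Eng overlaps Fpgs, a gene of the opposite strand, and whether the counting used strand is not given in the sources used here.

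Acvrl1 (chromosome 15, 101128522 to 101145336, plus strand, mm10), which encodes the BMP9 and BMP10 receptor ALK1, had 635, 378 and 486 CPM in choroid positives, against 80.1, 44.3 and 54.0 CPM in choroid inputs. Retina held 237, 162 and 139 CPM in positives, against 5.05, 3.64 and 4.39 CPM in inputs. Brain held 463, 558 and 377 CPM in positives, against 13.2, 11.2 and 9.64 CPM in inputs. The fractions did not overlap in any tissue, and the gain was close to that of Eng in brain. Its log2 fold change was 3.07 ± 0.29 in choroid (edgeR adjusted p = 0.000178), 5.37 ± 0.24 in retina (edgeR adjusted p = 1.58e-06) and 5.35 ± 0.24 in brain (edgeR adjusted p = 4.11e-05). Acvrl1 overlaps the antisense gene Gm16031.

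Tgfbr2 (chromosome 9, 116087695 to 116175363, minus strand, mm10), the type II receptor of TGF-beta, gained much less in choroid than in the other tissues. Choroid positives had 323, 216 and 186 CPM, against 164, 83.2 and 94.8 CPM in choroid inputs. Retina positives had 173, 133 and 116 CPM, against 4.46, 5.09 and 4.88 CPM in retina inputs. Brain positives had 273, 278 and 218 CPM, against 21.1, 19.0 and 10.9 CPM in brain inputs. The choroid inputs held more Tgfbr2 than the inputs of the other tissues, and choroid input 421, at 164 CPM, came near choroid positive 960, at 186 CPM. Log2 fold changes were 1.09 ± 0.30 in choroid (edgeR adjusted p = 0.0208, 2.12-fold), 4.86 ± 0.18 in retina (edgeR adjusted p = 5.96e-07, 29.0-fold) and 3.90 ± 0.29 in brain (edgeR adjusted p = 0.000103, 14.9-fold). The choroid call was lost without positive 421 (0.81, edgeR adjusted p = 0.0543), input 953 (0.89, edgeR adjusted p = 0.0814) or input 960 (0.97, edgeR adjusted p = 0.0596), and with scaling by library size only (0.86, edgeR adjusted p = 0.0591).

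**Figure D1:**
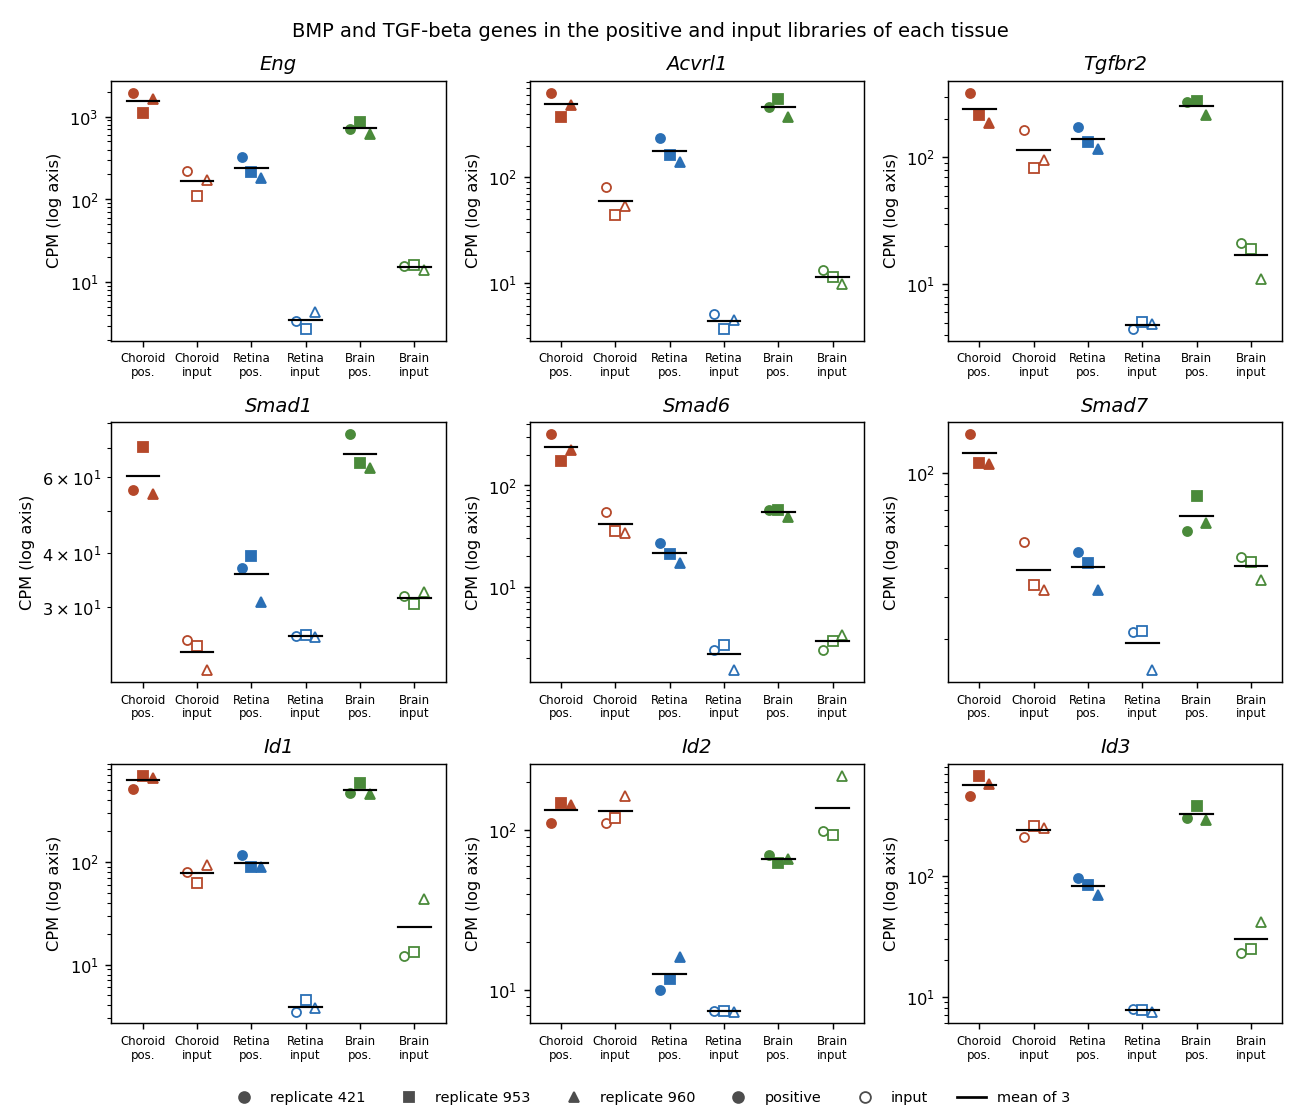
CPM of the 9 genes, scaled within each tissue, in each of 18 libraries on a log axis (filled points positive, open points input, horizontal bars the mean of 3). Positive points lie above every input point of the same tissue for 8 of the genes, while those of Id2 overlap the inputs in choroid and lie below them in brain.

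Among the SMAD genes Smad6 had large ratios of positive over input, and Smad1 and Smad7 small ones. Smad6 (chromosome 9, 63953076 to 64022059, minus strand, mm10) encodes an inhibitory SMAD that acts mainly on BMP receptors and that BMP signals induce. It had 320.2, 174 and 223 CPM in choroid positives, against 54.6, 35.3 and 34.1 CPM in choroid inputs. In retina it had 27.0, 20.9 and 17.2 CPM in positives, against 2.36, 2.66 and 1.50 CPM in inputs. In brain it had 57.2, 57.4 and 49.1 CPM in positives, against 2.40, 2.92 and 3.36 CPM in inputs. Choroid stood apart in both fractions: each choroid positive library exceeded every positive library of retina and brain on this scale, and each choroid input every input of those tissues. Its counts were low in the retina inputs (36, 57 and 28) and the brain inputs (80, 82 and 31). The log2 fold change was 2.53 ± 0.29 in choroid (edgeR adjusted p = 0.000333). It was 3.31 ± 0.27 in retina and 4.26 ± 0.19 in brain, given without a test because Smad6 entered those tables through the positives alone.

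Smad7 (chromosome 18, 75367365 to 75395934, plus strand, mm10), the inhibitory SMAD that blocks both TGF-beta and BMP receptors, had 146, 109.9 and 109.8 CPM in choroid positives, against 51.5, 33.8 and 32.4 CPM in choroid inputs. Retina positives had 46.5, 42.0 and 32.2 CPM, against 21.5, 21.6 and 14.8 CPM in retina inputs. Brain positives had 56.9, 80.2 and 61.4 CPM, against 44.2, 42.3 and 35.6 CPM in brain inputs. The fractions did not overlap in any tissue, and the gain was largest in choroid and smallest in brain. It was 1.64 ± 0.23 in choroid (edgeR adjusted p = 0.000909), 1.05 ± 0.19 in retina (edgeR adjusted p = 0.0046) and 0.70 ± 0.18 in brain (edgeR adjusted p = 0.0213) on the log2 scale. The brain call was lost without positive 953 (0.51, edgeR adjusted p = 0.0709) or input 953 (0.73, edgeR adjusted p = 0.0584), and with all 18 libraries in 1 fit (0.51, edgeR adjusted p = 0.0596).

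Smad1 (chromosome 8, 79338398 to 79399468, minus strand, mm10), the mediator that BMP receptors phosphorylate, had the smallest gain of the SMAD genes in choroid and retina. Choroid positives had 55.8, 70.1 and 54.7 CPM, against 25.2, 24.4 and 21.5 CPM in choroid inputs. Retina positives had 36.9, 39.5 and 30.9 CPM, against 25.7, 26.0 and 25.7 CPM in retina inputs. Brain positives had 75.2, 64.6 and 62.9 CPM, against 31.9, 30.5 and 32.5 CPM in brain inputs. Even so, no positive library was below an input of its tissue. Its log2 fold change was 1.34 ± 0.19 in choroid (edgeR adjusted p = 0.000943), 0.47 ± 0.13 in retina (edgeR adjusted p = 0.024) and 1.10 ± 0.14 in brain (edgeR adjusted p = 0.00109). The retina call was lost when any single input was left out (0.47, 0.47 and 0.46, edgeR adjusted p = 0.0904, 0.0937 and 0.0959) and without positive 953 (0.41, edgeR adjusted p = 0.0756).

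The Id genes, direct targets of BMP SMADs, did not move as a group. Id1 (chromosome 2, 152736274 to 152737410, plus strand, mm10) had 516, 692 and 663 CPM in choroid positives, against 79.6, 63.0 and 92.3 CPM in choroid inputs. Retina held 118, 88.3 and 89.8 CPM in positives, against 3.48, 4.48 and 3.75 CPM in inputs. Brain held 467, 586 and 459 CPM in positives, against 12.1, 13.3 and 43.8 CPM in inputs. The fractions were far apart in every tissue, and brain input 960 held over 3 times the Id1 level of the other brain inputs. The log2 fold change was 2.99 ± 0.22 in choroid (edgeR adjusted p = 8.02e-05), 4.65 ± 0.18 in retina (edgeR adjusted p = 6.03e-07) and 4.47 ± 0.57 in brain (edgeR adjusted p = 0.00116). Without brain input 960 the brain value was 5.31 (edgeR adjusted p = 3.39e-06).

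Id3 (chromosome 4, 136143822 to 136145392, plus strand, mm10), whose promoter is printed above, gained in each tissue, and least in choroid. Choroid positives had 461, 682 and 579 CPM, against 212, 259.6 and 249 CPM in choroid inputs. Retina positives had 95.6, 84.8 and 69.5 CPM, against 7.94, 7.80 and 7.50 CPM in retina inputs. Brain positives had 302, 383 and 290.0 CPM, against 23.1, 24.7 and 41.9 CPM in brain inputs. The choroid inputs were higher in Id3 than the inputs of the other tissues, and brain input 960 was the highest of the brain inputs. The log2 fold change was 1.26 ± 0.20 in choroid (edgeR adjusted p = 0.00166), 3.42 ± 0.15 in retina (edgeR adjusted p = 1.35e-06) and 3.45 ± 0.29 in brain (edgeR adjusted p = 0.000175).

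Id2 (chromosome 12, 25093799 to 25096092, minus strand, mm10) differed from its relatives in each tissue. In choroid it had 111, 148 and 143 CPM in positives, against 111, 119 and 164 CPM in inputs, and the fractions overlapped (log2 fold change 0.03 ± 0.20, edgeR adjusted p = 0.931). In retina it had 10.1, 11.7 and 16.1 CPM in positives, against 7.42, 7.43 and 7.34 CPM in inputs, a small gain (0.79 ± 0.21, edgeR adjusted p = 0.0221). In brain it had 70.2, 62.0 and 66.0 CPM in positives, against 98.8, 92.7 and 219 CPM in inputs, and was lower in the positives (-1.05 ± 0.34, edgeR adjusted p = 0.0475). In brain the whole of its positive range lay below the inputs. Id2 is expressed by many cell types beside endothelium, neurons included, and their part in these values was not tested. The retina call was lost when any single input was left out (0.79, 0.79 and 0.78, edgeR adjusted p = 0.0765, 0.0813 and 0.0823) and with all 18 libraries in 1 fit (0.74, edgeR adjusted p = 0.0811). The brain call was lost without positive 421, 953 or 960 (-1.09, -1.05 and -1.05, edgeR adjusted p = 0.121, 0.16 and 0.127), with the replicate number as a block (-0.93, edgeR adjusted p = 0.0716) and with DESeq2 size factors (-1.07, edgeR adjusted p = 0.0529). Brain input 960, with 219 CPM, moved this value too: without it Id2 was at -0.53 (edgeR adjusted p = 0.000981).

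**Figure D2:**
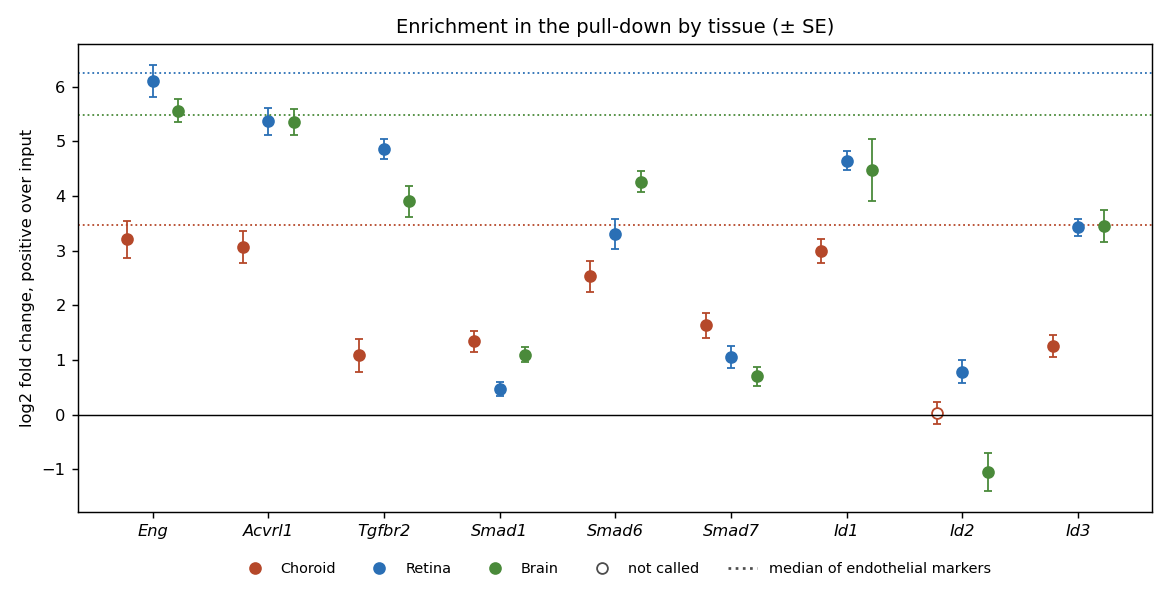
Log2 fold change of positive over input with its standard error for the 9 genes in choroid, retina and brain, from 3 libraries per fraction. Points are filled where called, but Smad6 in retina and brain was listed through positives alone, so its filled points there carry no test. Dotted lines are the median of 10 endothelial markers in the same tissue, and in retina and brain these include markers listed through positives alone. Eng, Acvrl1, Tgfbr2, Id1 and Id3 were at 3.42 to 6.10 in retina and 3.45 to 5.56 in brain, and at 1.09 to 3.21 in choroid.

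The differences in enrichment between tissues were tested directly, as the difference of the positive over input log2 ratios, with the 18 libraries and 10505 genes in 1 fit. Enrichment of the receptors was weaker in choroid than in the neural tissues. Against brain, the choroid ratio was lower by a log2 difference of -2.18 ± 0.39 for Eng (edgeR adjusted p = 0.000728), -2.10 ± 0.36 for Acvrl1 (edgeR adjusted p = 0.000487) and -2.64 ± 0.39 for Tgfbr2 (edgeR adjusted p = 0.000133). Smad6 (-1.56 ± 0.36, edgeR adjusted p = 0.00447) and Id3 (-2.02 ± 0.30, edgeR adjusted p = 0.000121) were lower too, so that 5 of the 9 genes were lower, where 12.3% of all genes were. The brain ratio of Smad6 comes from a table that listed it through the positives alone, which favours a high ratio there, and 4 of the 5 do not rest on it. Smad7 (1.11 ± 0.30, edgeR adjusted p = 0.0135) and Id2 (1.24 ± 0.37, edgeR adjusted p = 0.0231) were higher in choroid, 2 of 9 genes, where 12.2% of all genes were. The median difference over the 10 endothelial markers was -1.84 in the same fit, beside -2.02 to -2.64 for the 3 receptors and Id3. Brain listed 5 of these markers through the positives alone, which favours a high brain ratio and so a lower difference for them. Over all genes 1286 were higher and 1296 lower, and scaling by library size only gave 547 and 2196. Id1 was at -1.32 ± 0.49 (edgeR adjusted p = 0.0584), and at -1.56 (edgeR adjusted p = 0.028) with tissue and replicate number as a block and -1.69 (edgeR adjusted p = 0.0113) with scaling by library size only. It was also called lower with the DESeq2 Wald test (-1.35, DESeq2 adjusted p = 0.0318) and without both fractions of brain 960 (-2.20, edgeR adjusted p = 3.58e-05). Without brain input 960 Id1 was at -2.34 (edgeR adjusted p = 6.65e-06) and Id2 at 0.54 (edgeR adjusted p = 0.11). The Id2 call was also lost without choroid positive 953 (1.02, edgeR adjusted p = 0.105) or 960 (1.03, edgeR adjusted p = 0.0917), choroid input 421 (0.99, edgeR adjusted p = 0.102) or 953 (1.17, edgeR adjusted p = 0.0556) or brain positive 953 (1.19, edgeR adjusted p = 0.056). The Smad7 call was lost without choroid positive 421 (0.78, edgeR adjusted p = 0.0735) or choroid input 960 (0.81, edgeR adjusted p = 0.0767), and both calls were lost with scaling by library size only (0.78, edgeR adjusted p = 0.0843 for Smad7 and 0.87, edgeR adjusted p = 0.074 for Id2). The median difference over all genes was 0.075 with all libraries, -0.065 to -0.14 without any single choroid positive, choroid input 421 or 960 or brain input 960, and -0.26 with scaling by library size only.

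Set against retina, choroid ratios were lower for Tgfbr2 (-3.75 ± 0.41, edgeR adjusted p = 7.6e-06), Eng (-2.87 ± 0.41, edgeR adjusted p = 9.18e-05), Acvrl1 (-2.26 ± 0.37, edgeR adjusted p = 0.000326), Id3 (-2.14 ± 0.30, edgeR adjusted p = 8.96e-05) and Id1 (-1.63 ± 0.50, edgeR adjusted p = 0.0225). These were 5 of 9 genes, where 18% of all genes were lower, and the endothelial markers had a median of -2.77. Retina listed 7 of those markers through the positives alone, which favours a high retina ratio and so a lower difference for them. Over all genes 1141 were higher and 1887 lower, and scaling by library size only gave 580 and 2683. The Id1 call was lost without choroid positive 421 (-1.48, edgeR adjusted p = 0.059), choroid input 960 (-1.46, edgeR adjusted p = 0.0609), retina positive 421 (-1.49, edgeR adjusted p = 0.0537) or retina input 421 (-1.56, edgeR adjusted p = 0.0545). Smad1 was the 1 gene of the 9 with a higher ratio in choroid (0.90 ± 0.20, edgeR adjusted p = 0.00288), where 10.9% of all genes were higher. Smad6, listed through positives alone in retina, was at -0.75 ± 0.37 (edgeR adjusted p = 0.14) and Smad7 at 0.61 ± 0.31 (edgeR adjusted p = 0.152), and both were called with the replicate block (-0.77, edgeR adjusted p = 0.037, and 0.62, edgeR adjusted p = 0.0446), Smad7 also without choroid input 421 (0.90, edgeR adjusted p = 0.0314). Id2 was at -0.73 ± 0.39 (edgeR adjusted p = 0.174). It was called lower in choroid with scaling by library size only (-1.0, edgeR adjusted p = 0.0457), without brain input 960 (-0.70, edgeR adjusted p = 0.0339) and without both fractions of brain 960 (-0.74, edgeR adjusted p = 0.0361).

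Between retina and brain, no difference passed the threshold for the receptors, Id1 or Id3. Id2 was the 1 gene called, with a higher ratio in retina (1.97 ± 0.39, edgeR adjusted p = 0.00403), where 8.33% of all genes were higher (875 higher and 522 lower, and 631 and 574 with scaling by library size only). The values were 0.69 ± 0.40 for Eng, 0.16 ± 0.37 for Acvrl1, 0.31 ± 0.50 for Id1 and 0.12 ± 0.30 for Id3 (edgeR adjusted p = 0.275, 0.804, 0.715 and 0.823). Standard errors of 0.30 to 0.50 leave room for differences of that size or larger. Tgfbr2 was at 1.11 ± 0.40 (edgeR adjusted p = 0.0735), and at 1.04 (edgeR adjusted p = 0.0216) with the replicate block and 1.10 (edgeR adjusted p = 0.0415) without brain input 960. It was also called with the DESeq2 Wald test (1.09, DESeq2 adjusted p = 0.0449) and without both fractions of brain 960 (1.24, edgeR adjusted p = 0.0342). The SMAD genes were at -0.48 for Smad1, -0.81 for Smad6 and 0.51 for Smad7, none called. Smad1 was called lower in retina with the DESeq2 Wald test (-0.51, DESeq2 adjusted p = 0.0343), and in edgeR without any single choroid positive, choroid input 421 or 960 or brain input 960 (-0.73 to -0.69, edgeR adjusted p = 0.0138 to 0.0311) and without both fractions of choroid 421 (-0.69, edgeR adjusted p = 0.0288). Smad6 was also called without both fractions of choroid 421 (-1.03, edgeR adjusted p = 0.0408). Leaving out these libraries also moved the median difference over all genes, which was 0.20 with all libraries, -0.0071 to -0.0072 without the named choroid libraries and -0.080 without brain input 960. Without brain input 960 the Id2 difference was 1.24 (edgeR adjusted p = 0.00351), and that of Id1 was -0.75 (edgeR adjusted p = 0.0546).

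The positive fractions were then compared between tissues in a fit of the 9 positive libraries, with TMM scaling over these libraries. All 9 genes were higher in choroid than in retina, where 32.9% of all genes were higher, and all 9 were lower in retina than in brain, where 31% were lower. In choroid against brain 5 of 9 were higher (Eng, Smad6, Smad7, Id2 and Id3), where 23.1% of all genes were (2424 higher and 2495 lower, and 1711 and 3086 with scaling by library size only). Smad6 had the largest difference of choroid from each of the other tissues, with 342, 183 and 237 CPM in choroid, 28.5, 22.4 and 18.2 CPM in retina and 57.5, 57.4 and 49.6 CPM in brain positives. Every choroid library lay above every brain library, and every brain library above every retina library. The log2 fold change of Smad6 was 2.21 ± 0.23 for choroid over brain (edgeR adjusted p = 5.93e-06), -1.26 ± 0.23 for retina over brain (edgeR adjusted p = 0.000481) and 3.47 ± 0.25 for choroid over retina (edgeR adjusted p = 1.12e-07). Eng came next for choroid over brain, with 2060.0, 1152 and 1709 CPM in choroid, 347, 230.2 and 192 CPM in retina and 701, 865 and 629 CPM in brain positives. Its values were 1.17 ± 0.27 for choroid over brain (edgeR adjusted p = 0.00334), -1.51 ± 0.27 for retina over brain (edgeR adjusted p = 0.000378) and 2.68 ± 0.28 for choroid over retina (edgeR adjusted p = 2.84e-06). The same order held for Id2, at 118, 155 and 152 CPM in choroid, 10.6, 12.5 and 17.0 CPM in retina and 70.5, 62.0 and 66.7 CPM in brain positives (1.09, -2.29 and 3.39 for the 3 comparisons). Tgfbr2 and Smad1 had nearly equal levels in choroid and brain: Tgfbr2 averaged 257 ± 77.3 CPM in choroid and 257 ± 32.7 CPM in brain positives (SD, n = 3 each), with a log2 fold change of -0.0017 ± 0.22. Smad1 averaged 63.8 ± 8.64 CPM in choroid and 67.9 ± 6.61 CPM in brain positives (-0.09 ± 0.17), and Acvrl1 (0.18 ± 0.25) and Id1 (0.39 ± 0.19) were not called either. Id1 was called higher in choroid with the DESeq2 Wald test (0.44, DESeq2 adjusted p = 0.0447) and without choroid positive 421 (0.50, edgeR adjusted p = 0.04). The retina over brain call of Smad7 (-0.64, edgeR adjusted p = 0.0118) was lost without brain positive 953 (-0.47, edgeR adjusted p = 0.0755).

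The endothelial markers themselves differed between the positive fractions, with a median log2 fold change of 0.37 for choroid over brain, -1.31 for retina over brain and 1.80 for choroid over retina. The comparison was therefore repeated with each library scaled to the geometric mean of the 10 markers, which shifts the median of all genes to -0.60, 1.27 and -2.02 for the same 3 comparisons. On this scale Smad6 was the 1 gene of the 9 that was higher in choroid than in brain (1.57 ± 0.30, edgeR adjusted p = 5.84e-05), where 5.2% of all genes were higher. As log2 of its level over the marker mean, Smad6 was at -0.44, -0.98 and -0.58 in choroid, -2.26, -2.30 and -2.13 in retina and -2.21, -2.42 and -2.05 in brain positives. Choroid libraries were all above the others, and retina and brain libraries overlapped. Tgfbr2 and Smad1, nearly equal in choroid and brain with TMM scaling, were at -0.64 ± 0.29 and -0.70 ± 0.31 for choroid over brain. Neither was called (edgeR adjusted p = 0.0775 and 0.0638). Between retina and brain 2 genes stayed lower in retina, Id1 (-1.0 ± 0.32, edgeR adjusted p = 0.00623) and Id2 (-0.96 ± 0.35, edgeR adjusted p = 0.0136), where 2.32% of all genes were lower. Choroid over retina gave 5 genes higher, where 3.42% of all genes were: Smad6 (1.58 ± 0.30), Id2 (1.45 ± 0.35), Id3 (0.94 ± 0.31), Eng (0.82 ± 0.33) and Id1 (0.81 ± 0.32), with edgeR adjusted p between 1.57e-05 and 0.022. It gave 2 lower, where 82.6% of all genes were, namely Tgfbr2 (-1.11 ± 0.30, edgeR adjusted p = 0.00102) and Smad1 (-1.12 ± 0.31, edgeR adjusted p = 0.00139), both of which were higher in choroid with TMM scaling. Acvrl1 was not called on this scale, at -0.43 ± 0.31, -0.05 ± 0.30 and -0.39 ± 0.31 for the 3 comparisons. The markers and the 9 genes both come from the pull-down, in which microglia, macrophage and leukocyte markers also differed between tissues (medians of 3.82 and 3.04 for choroid over retina), and the part of those cells was not tested.

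**Figure D3:**
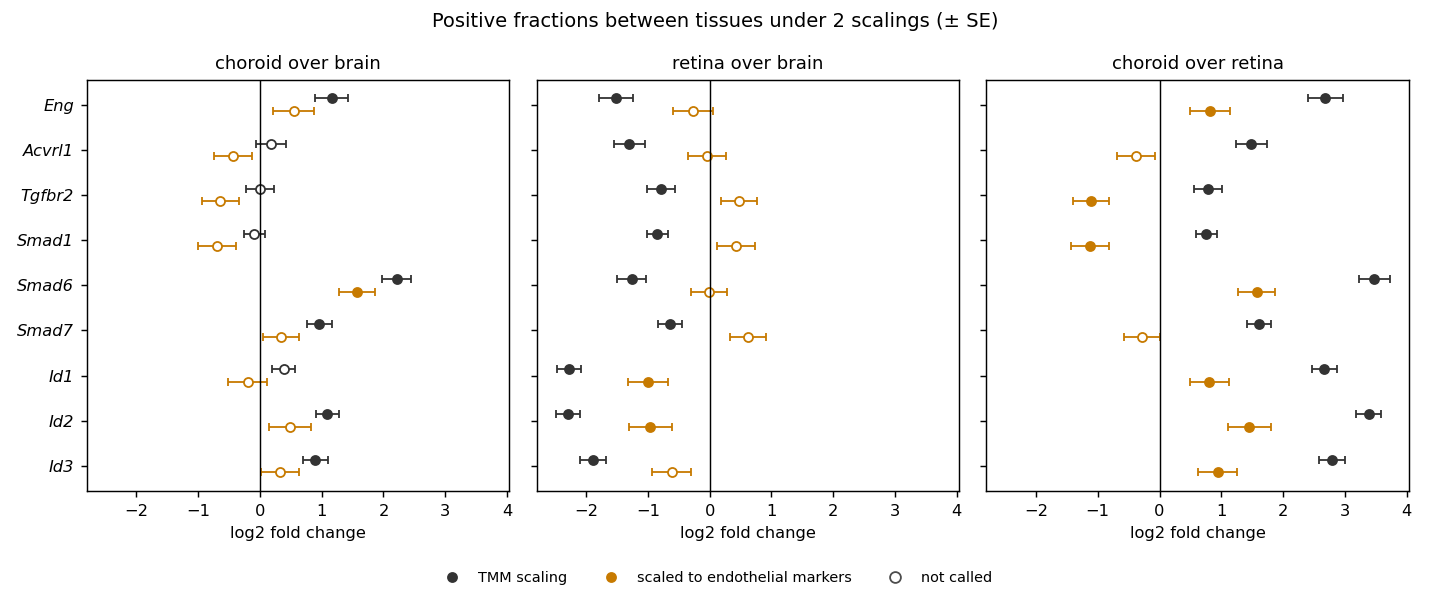
Log2 fold change between positive fractions with its standard error for the 9 genes, from 3 libraries per tissue, with TMM scaling (dark) and with scaling to 10 endothelial markers (orange), filled where called. Smad6 is to the right of 0 in choroid over brain and in choroid over retina under both scalings, while Tgfbr2 and Smad1 change side in choroid over retina.

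In the inputs, which hold RNA of the whole tissue sample, the receptors were most abundant in choroid. Choroid over brain gave 6 genes higher, where 26.7% of all genes were: Smad6 (3.86 ± 0.29), Eng (3.43 ± 0.28), Id3 (3.01 ± 0.23), Tgfbr2 (2.73 ± 0.32), Acvrl1 (2.38 ± 0.25) and Id1 (1.79 ± 0.45), with edgeR adjusted p between 5.55e-06 and 0.00821. Smad1 was lower (-0.42 ± 0.12, edgeR adjusted p = 0.0153), where 27.4% of all genes were, and was at -0.33 (edgeR adjusted p = 0.0512) with scaling by library size only. Retina over brain gave 8 genes lower, where 34.7% of all genes were (2550 higher and 3650 lower, and 3161 and 2829 with scaling by library size only), with Id2 at -4.34 ± 0.36, Id1 at -2.66 ± 0.49 and Eng at -2.27 ± 0.28, and Smad6 was not called (-0.52 ± 0.29, edgeR adjusted p = 0.144). Choroid over retina gave 8 genes higher, where 31.9% of all genes were, with Eng at 5.71 ± 0.32 and Id3 at 5.09 ± 0.26, and Smad1 was not called (0.02 ± 0.12, edgeR adjusted p = 0.913). The 10 endothelial markers moved the same way, with medians of 2.52, -2.30 and 4.80 in the 3 comparisons. Without brain input 960, Id1 was at 2.61 for choroid over brain and -1.70 for retina over brain, and Id2 at -3.71 for retina over brain. The call of Smad1 for retina over brain (-0.43 ± 0.12, edgeR adjusted p = 0.0122) was lost without choroid input 953 (-0.33, edgeR adjusted p = 0.0558). Without brain input 960, Id2 was higher in choroid than in brain (0.44, edgeR adjusted p = 0.0308), against -0.06 ± 0.31 with all libraries.

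Levels of different genes were compared per kilobase of exon, in CPM scaled over all 18 libraries. In choroid positives Id1 came first at 613 ± 92.7 CPM per kb, before Eng at 435 ± 119.9, Id3 at 365 ± 69.1, Acvrl1 at 134 ± 34.7 and Smad6 at 85.0 ± 26.5 CPM per kb (mean ± SD, n = 3). Id2, Tgfbr2, Smad7 and Smad1 followed, at 62.5 ± 9.37, 33.6 ± 9.90, 30.7 ± 5.22 and 10.9 ± 1.49 CPM per kb. Neighbours whose mean ± SD overlapped were Id1 and Eng, Eng and Id3, Acvrl1 and Smad6, Smad6 and Id2, and Tgfbr2 and Smad7. In retina positives the order was Id1 (86.3 ± 14.1 CPM per kb), Eng (60.7 ± 19.0), Id3 (47.2 ± 7.36), Acvrl1 (42.6 ± 12.0), Tgfbr2 (17.4 ± 3.58), Smad7 (9.04 ± 1.65), Smad6 (6.88 ± 1.53), Smad1 (5.80 ± 0.738) and Id2 (5.26 ± 1.29). The first 4 overlapped as neighbours there, and so did the last 4. Brain positives had Id1 first at 439.9 ± 56.6 CPM per kb, then Id3 at 184 ± 26.5 and Eng at 182 ± 28.7, which overlapped, then Acvrl1 at 111 ± 20.1 CPM per kb. Tgfbr2 at 31.7 ± 3.85 and Id2 at 27.5 ± 1.89 CPM per kb overlapped, as did Smad6 at 17.2 ± 1.32 and Smad7 at 14.8 ± 2.61, and Smad1 was last at 10.9 ± 1.07 CPM per kb. Among the brain inputs Id2 had the highest mean of the 9 genes, 64.7 ± 33.2 CPM per kb, with a spread set by input 960, whereas Acvrl1 was at 3.08 ± 0.508 CPM per kb.

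Around these genes, 96 others of the pathway were examined as lists by role, of which 81 had a row in some table. The listing minimum was met in both fractions by 52 of them in choroid, 50 in retina and 63 in brain, and the counts that follow are over these. In choroid 17 were higher and 15 lower, where 30.1% and 14.8% of all genes so listed were. In retina 14 were higher and 9 lower, where 17.3% and 14.3% were, and in brain 14 were higher and 15 lower, where 16.7% and 19.9% were. Median log2 fold changes were 0.065, 0.012 and -0.026, beside 0.21, -0.0078 and -0.13 over all genes so listed. Among ligands, 2 of 7 were higher and 3 lower in choroid, 1 and 0 of 4 in retina and 2 and 2 of 9 in brain. In retina 2 ligands were higher without positive 421 and 0 without input 953 or 960, and in brain 5 were lower without input 960 and 1 when any other single library was left out. Tgfb1, the main TGF-beta isoform of blood and vessels, was higher in choroid (2.59 ± 0.23) and brain (4.01 ± 0.19), where it had 112 ± 21.2 CPM in positive and 6.92 ± 0.208 CPM in input libraries. Retina listed it through positives alone, at 4.63 ± 0.20. Macrophages and platelets also make Tgfb1, and the part of these cells was not tested. The macrophage markers above were higher in the same libraries. Platelet markers that met the minimum in both fractions were called higher in choroid alone. Bmp4, a BMP ligand, was lower in choroid positives (-1.42 ± 0.25), and brain listed it through positives alone (1.83 ± 0.27). Inhbb, an activin subunit, was higher in choroid (1.95 ± 0.30), where Gdf11 was listed through inputs alone (-2.43 ± 0.24).

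Among the other receptors 2 of 7 were higher and 3 lower in choroid, 3 and 6 of 11 in retina and 3 and 5 of 13 in brain. Over all genes listed through both fractions, 30.1%, 17.3% and 16.7% were higher in choroid, retina and brain. The shares lower were 14.8%, 14.3% and 19.9%. In choroid 1 was higher without input 953. In retina 1 was higher without input 953 or 960, and 2 to 3 were lower without positive 953 or any single input, and in brain 2 were lower without positive 421. Tgfbr1, the partner of Tgfbr2, was higher in choroid (1.08 ± 0.29), retina (0.62 ± 0.16) and brain (2.83 ± 0.28). Tgfbr3, the co-receptor betaglycan, was lower in choroid (-0.98 ± 0.20) and higher in retina (1.76 ± 0.30) and brain (1.83 ± 0.20). Bmpr1a, the widely expressed BMP type I receptor ALK3, was lower in each (-1.83 ± 0.19 in choroid, -0.70 ± 0.14 in retina and -0.94 ± 0.20 in brain), opposite to Acvrl1. Bambi, a decoy receptor, was higher in choroid (2.04 ± 0.26) and brain (0.88 ± 0.28). Of these, Tgfbr1 lost its call in choroid without input 953 and with scaling by library size only, and in retina without positive 953 or any single input and with all 18 libraries in 1 fit (edgeR adjusted p up to 0.0728 and 0.146). Bmpr1a lost it in brain without positive 421, and Bambi in brain without positive 421 or 953 or input 421 or 953 (edgeR adjusted p up to 0.0559 and 0.183). Bambi in brain was also not called with the replicate block, with DESeq2 size factors or with all 18 libraries in 1 fit. Among the other SMADs, 1 of 4 was called in retina, Smad2 (-0.47 ± 0.10), and 1 of 5 in brain, Smad5 (0.57 ± 0.14), with none of 4 in choroid. Smad2 lost its call without retina input 960, and Smad5 without brain positive 421 or 953 or brain input 421 or 953 and with the replicate block (edgeR adjusted p up to 0.0598 and 0.0982). Without brain input 960, 2 SMADs were higher and 1 lower in brain.

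Of the secreted antagonists 5 of 6 were lower in choroid and 0 higher, 1 of 7 was higher in retina, and 5 of 10 were lower and 0 higher in brain. The shares of all genes listed through both fractions were 14.8%, 14.3% and 19.9% lower in choroid, retina and brain, and 30.1%, 17.3% and 16.7% higher. In retina 1 was lower without positive 960, and in brain 3 were lower without positive 953 or input 953. Sostdc1, which binds BMPs, was lower in choroid (-2.57 ± 0.21), and brain listed it through inputs alone (-2.38 ± 0.35). Twsg1 was lower in choroid (-1.39 ± 0.21), and Kcp was listed in brain through positives alone (3.08 ± 0.41). Crim1, a membrane protein that binds BMPs, was lower in choroid (-1.43 ± 0.21) and higher in retina (0.42 ± 0.12), where the call was lost without positive 953 or any single input and with all 18 libraries in 1 fit (edgeR adjusted p up to 0.168). In the list of latent TGF-beta activation, 2 of 6 were higher and 3 lower in choroid, 1 and 1 of 3 in retina and 1 and 1 of 4 in brain. In retina 2 were higher without positive 960 and 0 lower without input 960, and in brain 2 were lower without input 960. Ltbp4, which stores latent TGF-beta in the matrix, was higher in each tissue (1.76 ± 0.28, 5.63 ± 0.28 and 4.24 ± 0.39 in choroid, retina and brain). Lrrc32, which anchors it on cell surfaces, was higher in choroid (2.13 ± 0.40), and retina and brain listed it through positives alone (5.21 ± 0.55 and 3.12 ± 0.27). Itgav, the alpha chain of integrins that release it, was lower in each (-2.25 ± 0.21, -0.75 ± 0.17 and -1.26 ± 0.16), with the retina call lost without input 960 (edgeR adjusted p = 0.0567), and Thbs1, another activator, was lower in choroid (-1.99 ± 0.27). Fibroblast markers moved the same way as the antagonists, with 4 of 4 lower in choroid and 3 of 3 in brain. Summed over every listed marker, they had 464 to 703 CPM in choroid positives, against 1434 to 1938 CPM in inputs. In brain the sums were 24.4 to 40.3 against 102 to 127 CPM, and the part of fibroblasts was not tested.

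Intracellular regulators had 3 of 9 higher and 0 lower in choroid, 2 and 1 of 11 in retina and 2 and 1 of 10 in brain. All genes listed through both fractions had 30.1%, 17.3% and 16.7% higher in choroid, retina and brain, and 14.8%, 14.3% and 19.9% lower. In retina 1 was higher and 0 lower without positive 953 or any single input, and 2 were lower without positive 421. In brain 4 were higher and 4 lower without input 960, and 1 was higher when any other single library was left out. Tgif1, a SMAD co-repressor, was higher in choroid (1.22 ± 0.22), and brain listed it through positives alone (2.53 ± 0.29). Skil was higher in choroid (1.20 ± 0.26) and Ski in retina (0.79 ± 0.12, lost with all 18 libraries in 1 fit, edgeR adjusted p = 0.0831). The ubiquitin ligase Nedd4l was lower in brain (-0.72 ± 0.14), and choroid listed it through inputs alone (-1.20 ± 0.19). Other targets of the pathway had 6 of 10 higher in choroid, 4 of 7 in retina and 4 of 9 in brain, with 1 lower in brain, beside the background shares above of 30.1%, 17.3% and 16.7% higher. In retina 1 target was lower without positive 960, and in brain 7 were higher without input 960 and 0 lower without positive 421 or 953. Atoh8, a target of ALK1, was higher in choroid (1.80 ± 0.26), and retina and brain listed it through positives alone (3.17 ± 0.23 and 2.45 ± 0.25). The cell cycle inhibitor Cdkn1a was higher in each tissue (2.07 ± 0.24, 3.80 ± 0.29 and 2.49 ± 0.18 in choroid, retina and brain). Klf10, a TGF-beta early response gene, was higher in choroid (2.58 ± 0.24) and retina (1.38 ± 0.16), and so was Hey1 (2.09 ± 0.24 and 1.36 ± 0.21), which Notch also induces. Of the E protein genes whose products bind Id proteins, 2 of 3 were higher in choroid and retina and 1 in brain, or 3 in brain without input 960: Tcf3 in each (1.30 ± 0.16, 0.85 ± 0.18 and 1.72 ± 0.18) and Tcf4 in choroid (1.54 ± 0.19) and retina (0.69 ± 0.15, lost without input 421, edgeR adjusted p = 0.0517). Tcf12 was lower in choroid (-0.74 ± 0.26), a call lost with DESeq2 size factors and without positive 953 or 960 or input 421 or 953 (edgeR adjusted p up to 0.14).

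**Figure D4:**
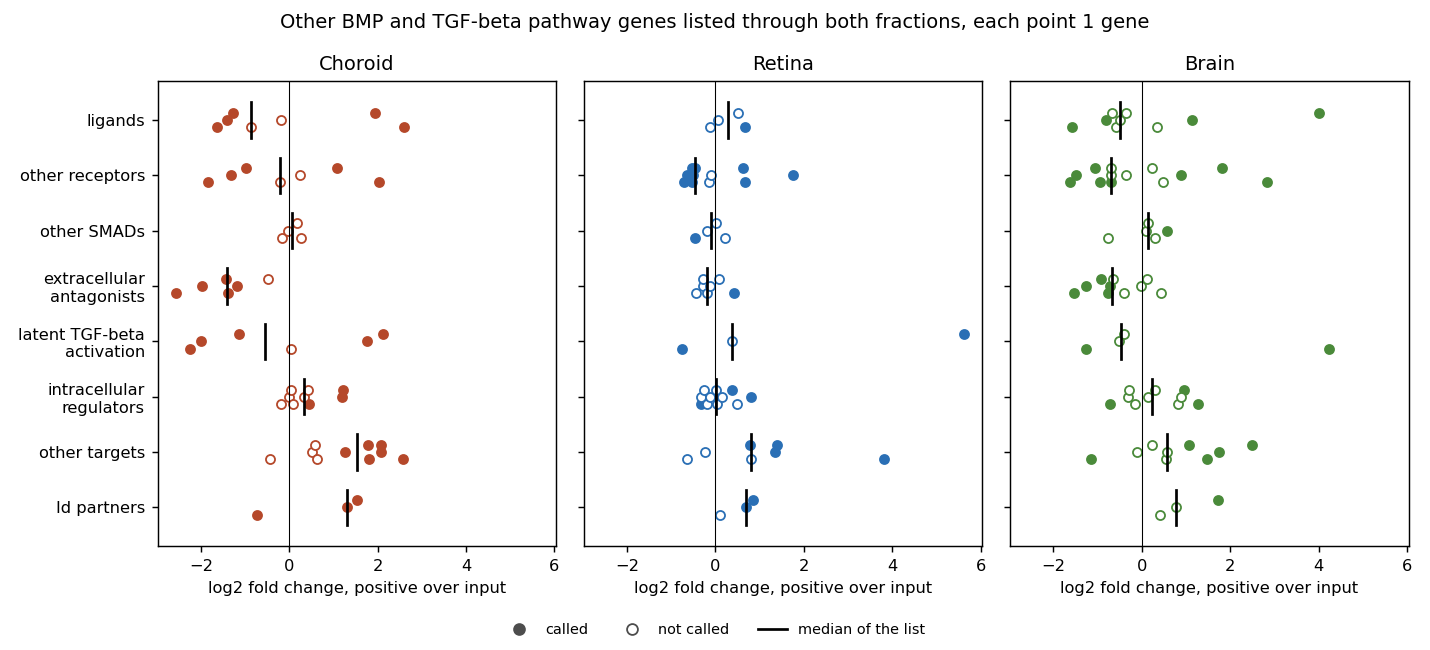
Log2 fold change of positive over input for each gene of 8 pathway lists that met the listing minimum in both fractions, in choroid, retina and brain (the 9 genes described above are left out, filled where called, vertical bars the median of a list). Medians of the other targets lie at 0.57 to 1.52, and those of the other receptors at -0.69 to -0.21.

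Across the 18 libraries, log2(CPM + 1) of the receptors, Smad6, Id1 and Id3 moved closely together, and that of Id2 less so. The Pearson correlation was 0.986 for Eng with Acvrl1, 0.977 for Eng with Tgfbr2, 0.973 for Eng with Id1 and 0.949 for Smad6 with Id3, against values for Id2 between 0.333 with Acvrl1 and 0.649 with Id3, with 0.642 for Smad7 and 0.526 for Id1. These are descriptions over 18 libraries that share tissue, fraction and depth. The 10187 genes that averaged 10 CPM or more were ranked by this correlation, with the genes described here skipped. Those most like Eng were Tagln2 and Ushbp1 (0.994 each), and those most like Acvrl1 were Fli1 and the endothelial marker Robo4 (0.995 each). Tgfbr2 was closest to Pear1 (0.992) and Cd97 (0.990), Smad6 to H2-K1 (0.987) and Itga5 (0.984), and Smad7 to Plxnd1 (0.976) and Klf10 (0.968), the last of which is a gene of the target list above. Id1 was closest to the flow-responsive factor Klf2 (0.995) and to Anxa3 (0.991), and Id3 to B2m (0.991) and Arpc1b (0.990). Id2 had Pdgfa (0.975) and Mpc1 (0.973), and Smad1 had Mesdc1 (0.945) and Abi3 (0.940), the lowest values of the 9 genes.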

How the data were processed

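RNA was measured by sequencing in 18 libraries, the anti-GFP pull-down (positive) and the input of choroid, retina and brain with 3 replicates each, made with a directional kit per the labels' protocols. The raw columns of the 3 deposited tissue tables are estimated counts per gene, of which 72.0%, 91.5% and 90.2% of values in choroid, retina and brain were not whole within 0.001, and they were rounded. The normalized columns are log2 values that the authors centred on the median of a tissue's inputs, as the deposited columns themselves show, and they were not used for tests. DESeq and mm10 are named in the submitters' processing notes, with aligner and counter not given in the sources used here. Tables list genes with 50 or more counts in all libraries of a fraction, per the file headers.

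Counts were fitted with edgeR 4.0.16 (R 4.3.3): TMM scaling, filterByExpr, which removed 0 genes, and quasi-likelihood tests with Benjamini-Hochberg adjustment over all genes of a fit. Calls were made at an adjusted p of 0.05, with 4 residual degrees of freedom for enrichment within a tissue, 12 for differences in enrichment between tissues and 6 for comparisons of positives or of inputs. The main fits were also run on simulated counts with known fold changes, and those rates are not given here. Replicate numbers pair the positive and the input of a tissue, because both come from 1 lysate per the labels' protocols. The deviations of paired libraries from their group means had correlations between 0.278 and 0.648 for choroid, between 0.0104 and 0.0999 for retina and between 0.0191 and 0.18 for brain, and the value with this block is given where it changed a call. Alternatives were DESeq2 1.42.0 (size factors, and its Wald test), library size scaling, no filter, the block, 1 fit of all libraries, scaling to endothelial markers and leaving out each library. Leaving out both fractions of brain 960 or of choroid 421, and counting only genes listed through both fractions, were chosen after seeing the data. The smaller choroid positive libraries carry the larger counting error. The standard error of a log2 fold change is its absolute value divided by the square root of the F statistic of the edgeR test. That test moderates its dispersion over all genes of the fit. SDs across 3 libraries cover only the spread between them.

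The genes described and the lists around them were chosen with earlier results of these data known. Pathway genes are named by rule, up to 4 per list with the smallest adjusted p among those called in some tissue, and 2 genes most like each gene by Pearson correlation. Lengths are exon unions of the mm10 annotation. Promoters are RefSeq sequences of GRCm38.p6.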

Additional observations from a re-analysis of the deposited data

Results flagged for a closer look

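The enrichment of positive over input differed between tissues for 14 pairs of gene and comparison, by the test of the difference itself in edgeR. Choroid minus brain gave log2 differences of -2.18 for Eng, -2.10 for Acvrl1, -2.64 for Tgfbr2, -1.56 for Smad6, -2.02 for Id3, 1.11 for Smad7 and 1.24 for Id2. Choroid minus retina gave -2.87 for Eng, -2.26 for Acvrl1, -3.75 for Tgfbr2, -1.63 for Id1, -2.14 for Id3 and 0.90 for Smad1. Retina minus brain gave 1.97 for Id2. Smad6 was listed in brain through the positives alone, which favours a high ratio there. The 3 comparisons share libraries, so these differences are not independent of each other. The calls of Id2 and Smad7 in choroid minus brain and of Id1 in choroid minus retina were lost when single libraries were left out, as given with the results.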

How the results depend on the processing

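Counts of the 9 genes called were within 1.5 times the main count except as follows. With DESeq2 size factors, and with the replicate block, 0 genes were lower in brain positives against inputs (1 in the main result, 0 to 1 with a library left out). For choroid minus brain, 0 were higher with library size scaling and 1 without both fractions of brain 960 or of choroid 421 (2 in the main result, 1 to 2 with a library left out). For retina minus brain, 2 were higher with the DESeq2 Wald test, the replicate block or without both fractions of brain 960 (1 in the main result, 1 to 2 with a library left out), while 1 was lower with the DESeq2 Wald test and 2 without both fractions of choroid 421 (0 in the main result, 0 to 1 with a library left out). For choroid minus retina, 2 were higher with the replicate block (1 in the main result, 1 to 2 with a library left out). With scaling to endothelial markers, 1 positive was higher in choroid over brain, 2 lower in retina over brain, and 5 higher and 2 lower in choroid over retina, against 5, 9, 9 and 0. In inputs of choroid over brain, 0 were lower with library size scaling (1 in the main result).

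Signs turned as follows. Id2 enrichment in choroid was -0.20 with library size scaling and -0.093 to 0.22 with a library left out. For retina minus brain, Id1 was -0.57 and Id3 -0.26 without both fractions of brain 960, Acvrl1 was -0.051 and Id3 -0.082 without both fractions of choroid 421, and leaving out a library gave -0.087 to 0.31 for Acvrl1, -0.42 to 0.27 for Id3 and -0.75 to 0.62 for Id1. Between positives of choroid and brain, Tgfbr2 was 0.043 with DESeq2 size factors and with the DESeq2 Wald test and -0.27 to 0.15 with a library left out, and Acvrl1 was -0.034 to 0.35. Scaling to endothelial markers gave -0.43 for Acvrl1 and -0.19 for Id1 in choroid over brain, 0.47 for Tgfbr2, 0.43 for Smad1 and 0.62 for Smad7 in retina over brain, and -0.39 for Acvrl1, -1.11 for Tgfbr2, -1.12 for Smad1 and -0.28 for Smad7 in choroid over retina. For inputs, Smad7 in choroid over brain was 0.022 with library size scaling and -0.34 to 0.036 with a library left out, Id2 was 0.046 with library size scaling, 0.0092 with the replicate block and -0.30 to 0.44, and Smad1 in choroid over retina was -0.0096 with DESeq2 size factors, -0.013 with the DESeq2 Wald test, -0.10 with library size scaling and -0.18 to 0.020. The cause was not tested.

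Over the 9 genes, 1064 values with a library left out kept direction and side of the threshold, 29 lost the threshold, 11 gained it and 30 changed sign. Library size scaling moved the median of all genes to -0.26 in choroid enrichment and to -0.33 in choroid minus retina. Counts over all genes moved for brain enrichment, with 4758 higher and 4860 lower without both fractions of brain 960, against 2744 and 2359, and for retina enrichment, with 1443 and 676 in a fit of all 18 libraries, against 2226 and 1696. Scaling to endothelial markers gave 546 higher and 4027 lower in choroid over brain, 7539 and 244 in retina over brain and 359 and 8682 in choroid over retina, against 2424 and 2495, 3367 and 3254, and 3461 and 4105. For choroid minus brain 812 were higher without both fractions of choroid 421, against 1286, and retina minus brain gave 1501 higher and 818 lower without both fractions of brain 960, and 564 and 992 without both fractions of choroid 421, against 875 and 522. Pathway lists moved too, counted over every listed gene: in a fit of all 18 libraries, 5 antagonists were lower in choroid and 2 other receptors in retina, against 8 and 6, and without both fractions of brain 960, 6 ligands were lower and 7 intracellular regulators higher in brain, against 2 and 3. Counting only genes listed through both fractions gave 1120 of all genes lower in choroid, against 2451. The labels do not say whether a replicate number is 1 animal across tissues: deviations of same-numbered positives correlated at -0.0807 to 0.176 and of inputs at -0.184 to 0.591, choroid and brain inputs each matched best to their own number (0.474, 0.0625 and 0.591), other pairs of tissues did not in every case, and beyond the changes given above the block moved no count of the 9 genes by over 1.5 times. Within a tissue the block ended the call of Id2 in brain, at -0.93 against -1.05, and no other of the 9 genes. The low input counts of Smad6 in retina and brain limit the precision of its ratios there.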
